A study of Mus musculus with 24 samples.

Results

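Cirbp, Rbm3, Hnrnpdl, Srsf5, Srsf7, Tra2a, Tra2b, Clk1 and Clk4 encode RNA-binding proteins and kinases that are known to respond to temperature and to act on splicing. They were taken by gene symbol from a table of 35304 genes counted in mouse liver; all 9 symbols were found, each with a single Ensembl identifier, and all 9 were among the 17275 genes with enough counts to be tested. Their levels were followed over the day in livers with and without the clock gene Arntl (also called Bmal1) in hepatocytes. HepKO mice were Alb::Cre_+/0 and Bmal1_fl/fl, so that Cre recombinase was driven by the albumin promoter, which is active in hepatocytes. HepWT mice were Alb::Cre_0/0 and also Bmal1_fl/fl, so both genotypes carried the floxed gene and differed in the Cre transgene. All mice were C57BL/6, 8 to 12 weeks of age and under night restricted feeding. The 24 libraries cover 6 zeitgeber times (ZT, counted in hours from lights on), namely 2, 6, 10, 14, 18 and 22, and each genotype has 2 of them per time. The sources used here do not say whether the libraries of a group came from separate animals, so the spread behind each p-value is that between these libraries and may be technical. Body temperature was not analysed here, so the response of the genes to temperature is background knowledge and was not measured.

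CIRBP and RBM3 are small glycine-rich RNA-binding proteins that accumulate when mammalian cells are cooled mildly, and CIRBP binds transcripts of clock genes. SR proteins such as SRSF5 and SRSF7 and the SR-like proteins TRA2A and TRA2B choose exons, and the CLK kinases phosphorylate them, with a kinase activity that is higher at lower body temperature. Many of these genes carry a poison exon or a retained intron in their own transcript, so that part of their RNA is degraded or kept in the nucleus; in rodents, body temperature is higher in the active dark phase than in the light phase.

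Total counts ran from 12997689 to 16910415 in 5 HepKO replicate 2 libraries (ZT6, 10, 14, 18 and 22) and from 23583035 to 30677807 in the other 19. Levels are given as CPM, counts relative to the TMM-scaled library total. Arntl itself, the deleted gene, oscillated with a fitted amplitude of 2.27 (log2, mean to peak) in HepWT and 0.32 in HepKO, and the difference between these rhythms had an adjusted p of 0.00208. It averaged 23.1 ± 17.7 CPM in HepWT and 13.7 ± 2.38 CPM in HepKO (SD over 12 libraries), but the log2 difference averaged over the day was 0.04 (adjusted p = 0.705): Arntl was lower in HepKO at ZT2 (-1.51), ZT18 (-0.96) and ZT22 (-1.31) and higher at ZT10 (3.05) and ZT14 (1.52), each past the threshold at its time. The gene-level count does not separate reads of the deleted exons, so it does not measure the deletion directly. All 8 hepatocyte markers were detected, with a summed level of 77386 to 106120 CPM in HepWT and 39329 to 58592 CPM in HepKO. That sum moved with Alb, which fell from 63916 to 25009 CPM (log2 difference -1.36, adjusted p = 4.31e-09); Apoa2 rose (0.30), and the other 6 hepatocyte markers did not pass. Of the other liver cell types, all 10 Kupffer cell markers fell (summed level 305 to 555 CPM in HepWT and 238 to 494 CPM in HepKO), as did 5 of 8 endothelial markers. Among 8 stellate cell and fibroblast markers Col1a1 (-1.18) and Col3a1 (-1.14) fell and Reln rose (0.22), while 2 of 5 tested cholangiocyte markers rose (26.0 to 58.2 and 46.9 to 159 CPM). Within HepWT, the markers also shifted between replicates. The median log2 shift, replicate 2 minus replicate 1, was 0.29 for Kupffer, 0.03 for endothelial, 0.14 for stellate and 0.47 for cholangiocyte markers. The part of these cell types in the differences between genotypes given below was not tested. In whole liver, fewer cells of a type and less RNA per cell cannot be told apart. None of the 3 muscle markers reached the level needed for a test, and their summed level was 0 to 0.196 CPM in every library.

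Sequence upstream of RefSeq starts (GRCm38.p6) was taken for 7 of the 9 genes, in 8 windows. Clk1 and Rbm3 had no window. All 250 bases of the Hnrnpdl window lay in annotated exons of that gene. The Clk4 window and both Cirbp windows also lay inside the annotated genes, so these windows do not cover the sequence before the gene. The 250 bases before each start site were searched on both strands for 7 motifs. TCCCCGCC, the letters of the mild cold response element described for Cirbp, lay 247 to 240 bases before the first of 2 RefSeq starts of Cirbp, a start that lies inside the annotated gene, and 44 to 37 bases before the Srsf7 start; 4.64% of 32851 windows of the same length hold it. The cAMP response element TGACGTCA lay 27 to 20 bases before the Tra2a start and 65 to 58 bases before a Clk4 start, and 1.55% of all windows hold it. The Tra2b window held GAAGGTTCCAGAA, 3 alternating repeats of a heat shock element, 207 to 195 bases before its start. A heat shock element of 3 repeats is held by 0.466% of all windows, and the 2-repeat form, GAANNTTC or TTCNNGAA, which overlaps it here, by 12.8%. The 3-repeat form was added to the search after the 2-repeat match was seen. The clock motifs CACGTG (E-box, in 6.02% of all windows), TTATGTAA (D-box, in 0.819%) and TAGGTCA (ROR element, in 2.23%) matched none of the 8 windows. The 8 windows held 56.8% (Srsf5) to 72.4% (second Cirbp window) G and C, beside a median of 52.4% over all windows. The windows with TCCCCGCC held 65.6% (Cirbp) and 61.6% (Srsf7). The shares of all windows were not matched for this, so they are not the shares of windows alike in G and C. A match describes letters and does not show a site in use. The 3 sequences below are printed on the strand of the gene because they hold the cold and heat elements of genes described next, with the element in capitals. The Cirbp window is printed without the 61 bases next to its start, and that of Srsf7 without 2, since annotated exons cover them. They are Cirbp at chr10:80167589-80167777 (plus strand), Srsf7 at chr17:80207308-80207555 (minus strand) and Tra2b at chr16:22266006-22266255 (minus strand).
Cirbp: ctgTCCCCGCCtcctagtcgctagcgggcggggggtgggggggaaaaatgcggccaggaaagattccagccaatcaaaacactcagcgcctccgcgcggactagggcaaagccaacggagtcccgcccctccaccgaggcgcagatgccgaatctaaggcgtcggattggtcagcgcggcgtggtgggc
Srsf7: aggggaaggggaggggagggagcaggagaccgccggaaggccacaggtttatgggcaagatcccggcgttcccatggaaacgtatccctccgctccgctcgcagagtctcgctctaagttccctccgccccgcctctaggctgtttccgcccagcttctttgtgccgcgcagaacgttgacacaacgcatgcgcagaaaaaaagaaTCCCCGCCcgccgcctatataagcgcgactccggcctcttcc
Tra2b: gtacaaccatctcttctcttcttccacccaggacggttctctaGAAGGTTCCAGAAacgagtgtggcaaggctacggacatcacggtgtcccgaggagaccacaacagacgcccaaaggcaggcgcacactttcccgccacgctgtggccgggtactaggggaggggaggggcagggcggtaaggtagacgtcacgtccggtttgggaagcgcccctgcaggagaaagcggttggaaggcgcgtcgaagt

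Most of the 9 genes oscillated over the day. With a 24 h wave fitted to all 24 libraries in edgeR, 8 of 9 passed the test for a rhythm in HepWT, against 30.3% of all tested genes, and 6 of 9 passed in HepKO, against 14.3% of all tested genes. The 6 genes called in HepKO, namely Cirbp, Rbm3, Hnrnpdl, Srsf5, Tra2a and Tra2b, were called in both genotypes, where 10.4% of all tested genes were. The 9 genes were chosen with earlier results of these data known, so these shares describe them and cannot test for an excess of rhythms. The median fitted amplitude of the 9 genes was 0.31 in HepWT and 0.22 in HepKO (log2), beside 0.22 and 0.19 over all tested genes. Hnrnpdl and Clk4 were called in HepWT with amplitudes of 0.19 and 0.16, below the HepWT median over all tested genes. In mean level the 9 genes stood above 57.9% (Cirbp) to 95.9% (Srsf5) of all tested genes. The shares over all tested genes were not matched for level. Without the 5 HepKO libraries of lower depth, the HepKO rhythm passed for 1 of the 9 genes, Cirbp, and for 166 of all genes in place of 2471. The fitted HepKO amplitudes then were 0.35 for Rbm3, 0.22 for Hnrnpdl, 0.44 for Srsf5, 0.29 for Tra2a and 0.22 for Tra2b, beside 0.35, 0.17, 0.34, 0.32 and 0.20 with all libraries, so the calls were lost with fewer libraries and amplitudes of similar or larger size.

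**Figure D1:**
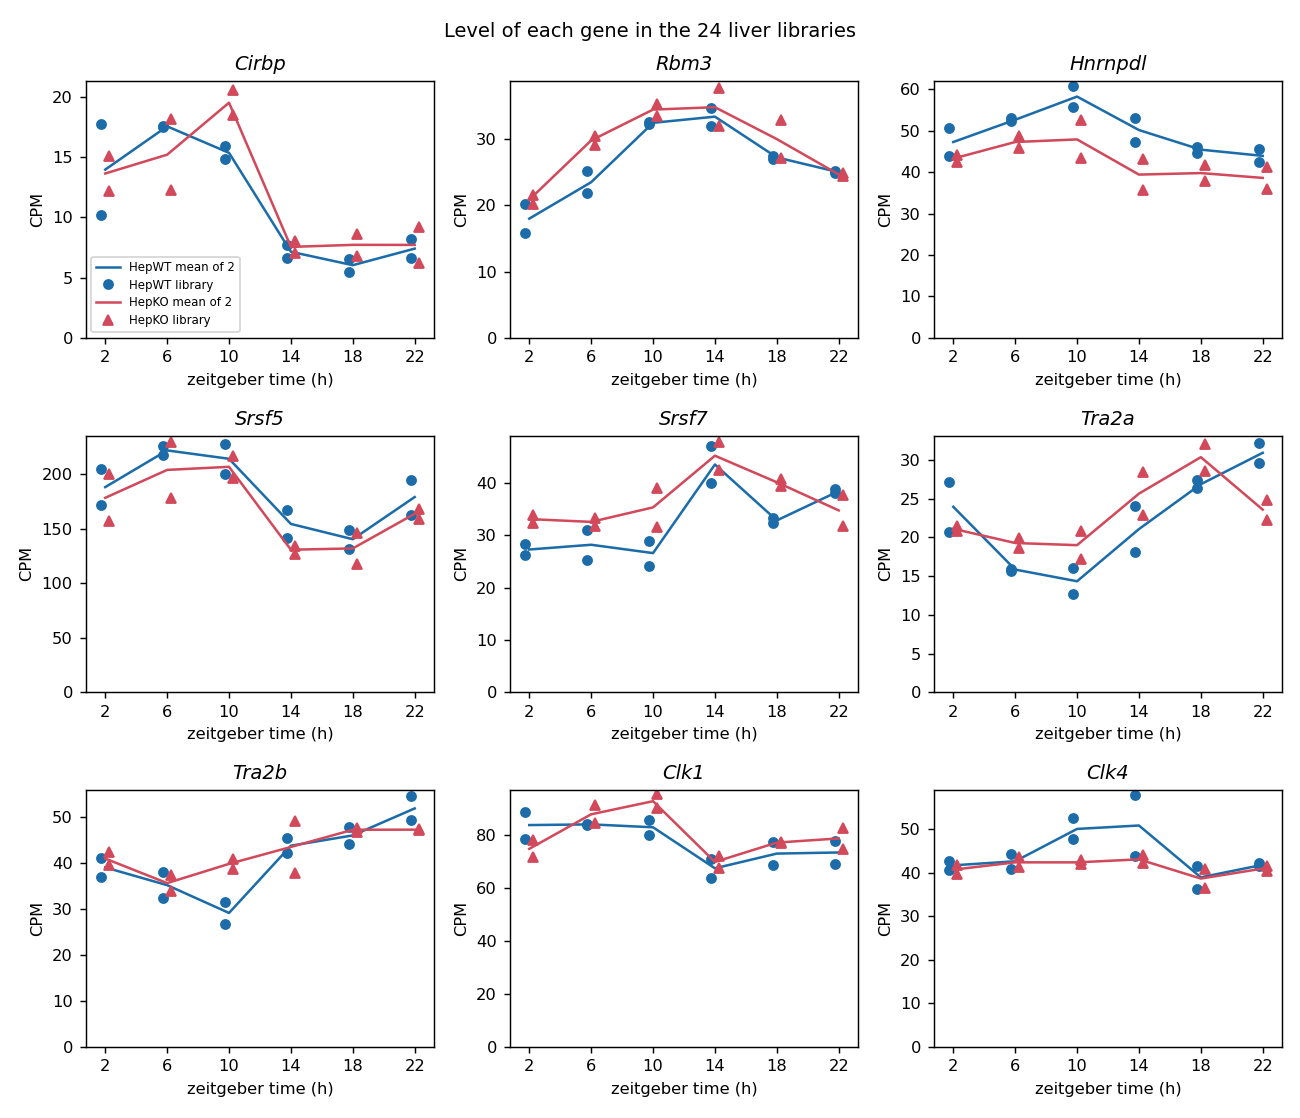
Level of each of the 9 genes (vertical axis, CPM from 0) against zeitgeber time (horizontal axis, h) in 24 libraries, with circles for HepWT libraries, triangles for HepKO libraries and lines through the means of 2. Cirbp stood highest at ZT6 in HepWT (17.5 and 17.6 CPM) and at ZT10 in HepKO (18.5 and 20.5 CPM), Tra2a stood highest at ZT22 in HepWT (29.7 and 32.2 CPM) and at ZT18 in HepKO (28.6 and 32.1 CPM), and no gene separated the 12 HepKO libraries from the 12 HepWT libraries.

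Cirbp (ENSMUSG00000045193, chromosome 10, 80165985 to 80172786, plus strand), the cold-inducible RNA-binding protein, had the largest amplitude of the 9 genes in both genotypes. In HepWT its replicates stood at 10.2 and 17.7 CPM at ZT2, 17.6 and 17.5 at ZT6, 15.9 and 14.8 at ZT10, 7.66 and 6.61 at ZT14, 6.55 and 5.50 at ZT18, and 6.62 and 8.17 at ZT22. In HepKO they stood at 15.1 and 12.2 CPM at ZT2, 18.2 and 12.2 at ZT6, 18.5 and 20.5 at ZT10, 7.05 and 8.03 at ZT14, 6.79 and 8.63 at ZT18, and 9.17 and 6.24 at ZT22. In both genotypes every library taken in the light phase (ZT2, 6 and 10) was above every library taken in the dark phase (ZT14, 18 and 22). The fitted amplitude was 0.85 ± 0.11 (SE) in HepWT with a peak at ZT6.14 ± 0.50 h (adjusted p = 2.74e-05), and 0.72 ± 0.11 in HepKO with a peak at ZT6.85 ± 0.59 h (adjusted p = 0.000950). Each amplitude was above that of 95% of all tested genes in the same genotype. The amplitudes differed by -0.13, with an interval of -0.47 to 0.20 (95%), and the test of the difference between rhythms gave an adjusted p of 0.827.

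Rbm3 (ENSMUSG00000031167, chromosome X, 8138975 to 8145880, minus strand), the other cold-inducible protein of the same family, did not share the time course of Cirbp. Its HepWT replicates stood at 15.8 and 20.2 CPM at ZT2, 21.9 and 25.1 at ZT6, 32.6 and 32.3 at ZT10, 32.0 and 34.8 at ZT14, 27.4 and 27.0 at ZT18, and 25.1 and 24.9 at ZT22. Its HepKO replicates stood at 21.5 and 20.2 CPM at ZT2, 30.5 and 29.1 at ZT6, 35.3 and 33.6 at ZT10, 32.0 and 37.7 at ZT14, 27.2 and 32.8 at ZT18, and 24.96 and 24.4 at ZT22. Libraries at ZT10 and ZT14 were among the highest and those at ZT2 were the lowest in both genotypes. The fitted peak came at ZT13.6 ± 0.55 h in HepWT (amplitude 0.39 ± 0.06, adjusted p = 8.63e-05) and at ZT12.5 ± 0.62 h in HepKO (amplitude 0.35 ± 0.06, adjusted p = 0.00127). Cirbp and Rbm3 therefore peaked 7.43 h apart in HepWT and 5.62 h apart in HepKO. The rhythms of Rbm3 in the 2 genotypes differed with an adjusted p of 0.773 and an amplitude difference of -0.04 (interval -0.21 to 0.13). Rbm3 shares 94 exon bases, 2% of its exons, with Rbm3os on the opposite strand, and a processed copy, Rbm3-ps, held 1 to 11 counts per library.

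Hnrnpdl (ENSMUSG00000029328, chromosome 5, 100033577 to 100039664, minus strand) encodes an hnRNP D-like protein that binds AU-rich RNA and regulates the splicing of its own transcript. In HepWT the replicates stood at 43.9 and 50.6 CPM at ZT2, 53.0 and 52.2 at ZT6, 55.7 and 60.7 at ZT10, 47.3 and 53.0 at ZT14, 44.7 and 46.1 at ZT18, and 45.5 and 42.3 at ZT22. In HepKO they stood at 42.4 and 44.1 CPM at ZT2, 48.8 and 45.7 at ZT6, 52.5 and 43.3 at ZT10, 35.7 and 43.1 at ZT14, 37.9 and 41.6 at ZT18, and 41.3 and 35.9 at ZT22. The HepWT libraries of ZT10 were above all other HepWT libraries, while the HepKO libraries of ZT10 lay on either side of those of ZT6. The amplitude was 0.19 ± 0.04 in HepWT (peak ZT9.26 ± 0.88 h, adjusted p = 0.00614) and 0.17 ± 0.04 in HepKO (peak ZT7.19 ± 1.01 h, adjusted p = 0.0338), and the difference between rhythms had an adjusted p of 0.719. The HepKO rhythm lost its call in 12 of 36 alternative settings, 5 of which left out 1 library.

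Srsf5 (ENSMUSG00000021134, chromosome 12, 80945504 to 80950507, plus strand) and Srsf7 (ENSMUSG00000024097, chromosome 17, 80200080 to 80207307, minus strand), both serine/arginine-rich splicing factors that bind exonic enhancers, oscillated in opposite phase. Srsf5 in HepWT stood at 172 and 205 CPM at ZT2, 226 and 218 at ZT6, 200.4 and 228 at ZT10, 142 and 168 at ZT14, 132 and 149 at ZT18, and 195 and 163 at ZT22. In HepKO it stood at 200.2 and 157 CPM at ZT2, 230.1 and 178 at ZT6, 217 and 197 at ZT10, 127 and 135 at ZT14, 118 and 146 at ZT18, and 168 and 159.5 at ZT22. The libraries of ZT14 and ZT18 were the lowest in HepKO, each below every HepKO library of the other 4 times, and those of ZT6 and ZT10 were among the highest in both genotypes. Its amplitude was 0.31 ± 0.07 in HepWT (peak ZT5.89 ± 0.84 h, adjusted p = 0.00516) and 0.34 ± 0.07 in HepKO (peak ZT5.68 ± 0.76 h, adjusted p = 0.00650), and the rhythms differed with an adjusted p of 0.985.

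Srsf7 in HepWT stood at 26.3 and 28.3 CPM at ZT2, 25.4 and 31.1 at ZT6, 24.2 and 29.0 at ZT10, 40.01 and 47.1 at ZT14, 32.3 and 33.4 at ZT18, and 38.1 and 38.8 at ZT22. In HepKO it stood at 33.9 and 32.3 CPM at ZT2, 31.8 and 33.4 at ZT6, 39.1 and 31.6 at ZT10, 47.9 and 42.6 at ZT14, 39.5 and 40.8 at ZT18, and 31.9 and 37.7 at ZT22. In both genotypes the libraries of ZT14 were above all others. The fitted HepWT wave peaked at ZT17.4 ± 0.95 h with an amplitude of 0.29 ± 0.07 (adjusted p = 0.0141). The HepKO wave, with an amplitude of 0.22 ± 0.07 and a peak at ZT15.4 ± 1.28 h, had an adjusted p of 0.0925, but the difference between the genotypes was not past the threshold either (adjusted p = 0.782, amplitude difference -0.07, interval -0.28 to 0.15). Srsf5 and Srsf7 peaked 11.5 h apart in HepWT and 9.70 h apart in HepKO.

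Tra2a (ENSMUSG00000029817, chromosome 6, 49243924 to 49264033, minus strand) encodes transformer-2 alpha, a sequence-specific splicing activator. In HepWT it stood at 27.2 and 20.7 CPM at ZT2, 15.99 and 15.7 at ZT6, 12.7 and 16.002 at ZT10, 18.1 and 24.03 at ZT14, 26.4 and 27.4 at ZT18, and 29.7 and 32.2 at ZT22. In HepKO it stood at 20.8 and 21.4 CPM at ZT2, 18.6 and 19.9 at ZT6, 20.8 and 17.2 at ZT10, 28.4 and 22.9 at ZT14, 28.6 and 32.1 at ZT18, and 22.3 and 24.9 at ZT22. The HepWT libraries were highest at ZT22 and the HepKO libraries at ZT18, in each case above every other library of the genotype. The amplitude was 0.55 ± 0.06 in HepWT (peak ZT20.8 ± 0.43 h, adjusted p = 5.37e-06) and 0.32 ± 0.06 in HepKO (peak ZT18.1 ± 0.77 h, adjusted p = 0.00569). The amplitude was lower by 0.23 in HepKO (difference -0.23, interval -0.42 to -0.04) and the peak came earlier in HepKO (difference -2.75 ± 0.88 h). The joint test of both gave an edgeR p of 0.00154 before and 0.0720 after adjustment, short of the threshold. It passed in 5 of 36 alternative settings: with DESeq2 (adjusted p = 0.0165), with no filter on low counts (0.00670), with HepWT replicate 1 libraries alone (0.0328), without HepKO ZT10 replicate 2 (0.0425) and without HepWT ZT14 replicate 2 (0.0188). Over all 36 its adjusted p ran from 0.00670 to 0.376.

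Tra2b (ENSMUSG00000022858, chromosome 16, 22244549 to 22266005, minus strand), the close relative of Tra2a, peaked with it in both genotypes. In HepWT it stood at 41.0 and 36.9 CPM at ZT2, 32.2 and 38.0 at ZT6, 26.6 and 31.5 at ZT10, 42.1 and 45.2 at ZT14, 44.1 and 47.8 at ZT18, and 49.2 and 54.4 at ZT22. In HepKO it stood at 39.4 and 42.4 CPM at ZT2, 33.8 and 37.3 at ZT6, 40.8 and 38.6 at ZT10, 49.0 and 37.8 at ZT14, 46.7 and 47.6 at ZT18, and 47.0 and 47.3 at ZT22. The HepWT libraries of ZT22 were above all others, and those of ZT10 were below all others. The amplitude was 0.35 ± 0.05 in HepWT (peak ZT20.2 ± 0.59 h, adjusted p = 0.000174) and 0.20 ± 0.05 in HepKO (peak ZT18.9 ± 1.052 h, adjusted p = 0.0461), a difference of -0.15 (interval -0.32 to 0.01, adjusted p of the rhythm difference 0.5004). The HepKO call was lost in 22 of 36 alternative settings, 16 of them leaving out 1 library. The peaks of Tra2a and Tra2b lay 0.652 h apart in HepWT and 0.821 h apart in HepKO.

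Clk1 (ENSMUSG00000026034, chromosome 1, 58410189 to 58424066, minus strand) and Clk4 (ENSMUSG00000020385, chromosome 11, 51261730 to 51281766, plus strand) encode CDC-like kinases that phosphorylate SR proteins, and their waves were shallow. Clk1 in HepWT stood at 78.7 and 88.9 CPM at ZT2, 83.9 and 84.3 at ZT6, 80.3 and 85.7 at ZT10, 63.8 and 71.2 at ZT14, 77.5 and 68.6 at ZT18, and 77.9 and 69.0 at ZT22. In HepKO it stood at 71.7 and 78.0 CPM at ZT2, 91.2 and 84.6 at ZT6, 95.5 and 90.2 at ZT10, 72.0 and 67.8 at ZT14, 76.9 and 77.5 at ZT18, and 82.7 and 74.8 at ZT22. In each genotype the light-phase times ZT6 and ZT10 were above ZT14 in every library. Neither wave passed: the HepWT amplitude was 0.15 ± 0.05 (peak ZT5.03 ± 1.22 h, adjusted p = 0.0545) and the HepKO amplitude 0.13 ± 0.05 (peak ZT7.33 ± 1.53 h, adjusted p = 0.180). The HepWT wave passed in 6 of 36 alternative settings, with adjusted p from 0.0274 to 0.5003 over all of them. With a 12 h harmonic added, Clk1 passed in HepKO (adjusted p = 0.0406).

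Clk4 in HepWT stood at 40.6 and 42.8 CPM at ZT2, 41.0 and 44.4 at ZT6, 47.7 and 52.5 at ZT10, 43.8 and 58.0 at ZT14, 41.7 and 36.3 at ZT18, and 41.5 and 42.2 at ZT22. In HepKO it stood at 41.7 and 39.8 CPM at ZT2, 43.6 and 41.2 at ZT6, 42.9 and 41.9 at ZT10, 42.2 and 44.0 at ZT14, 40.8 and 36.6 at ZT18, and 41.5 and 40.4 at ZT22. The HepWT rise rested on ZT10 and on 1 of the ZT14 libraries, and the HepKO libraries spanned a narrow range, 36.6 to 44.0 CPM. The amplitude was 0.16 ± 0.05 in HepWT (peak ZT11.1 ± 1.14 h, adjusted p = 0.0308) and 0.05 ± 0.05 in HepKO (peak ZT9.00 ± 3.41 h, adjusted p = 0.722). The difference between them was -0.11 (interval -0.25 to 0.03, adjusted p of the rhythm difference 0.646), so a loss of the rhythm in HepKO was not shown. The HepWT call was lost without HepWT ZT10 replicate 2 (adjusted p = 0.104), without HepWT ZT14 replicate 2 (0.0550) and in 5 other settings. Clk4 shares 59 exon bases, 1.02% of its exons, with Gm25082 on the same strand.

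None of the 9 genes passed the test of a difference between the rhythms of the genotypes in edgeR (0 of 9, against 1.50% of all tested genes) or the test of a genotype difference that varies with time (0 of 9, against 1.12%). At an unadjusted p below 0.05, 1 of 9 passed each of these tests in edgeR, Tra2a in both. DESeq2 called 1 of 9, Tra2a, for the rhythm difference and 0 of 9 for the interaction; limma-voom called 0 of 9 in either.

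**Figure D2:**
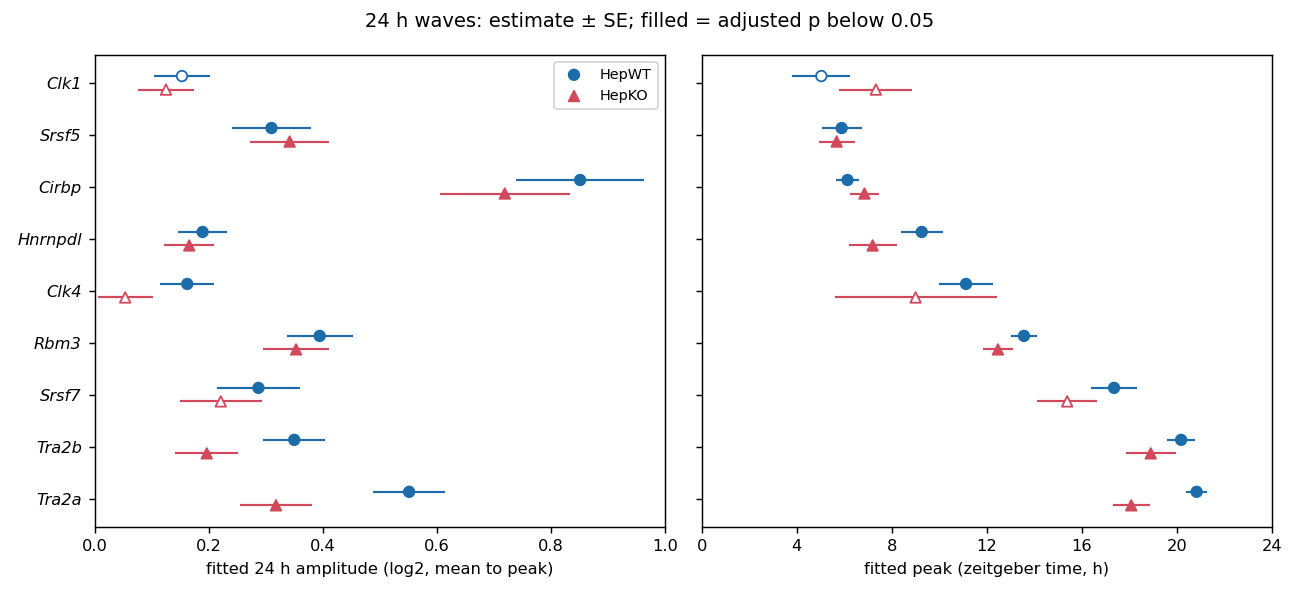
Fitted 24 h amplitude (left, log2, mean to peak) and fitted peak time (right, zeitgeber time in h) of the 9 genes, with circles for HepWT, triangles for HepKO, bars of 1 SE, and filled symbols for an adjusted p below 0.05. Peaks run from Clk1 at ZT5.03 to Tra2a at ZT20.8 in HepWT, and Cirbp has the largest amplitude, 0.85 in HepWT and 0.72 in HepKO.

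Among themselves the genes formed a sequence over the day. In HepWT the peaks came in the order Clk1, Srsf5, Cirbp, Hnrnpdl, Clk4, Rbm3, Srsf7, Tra2b and Tra2a. Clk1, Srsf5 and Cirbp lay within about 1 SE of each other, as did Tra2b and Tra2a. Over the 24 libraries, the 6 pairs within Cirbp, Srsf5, Clk1 and Hnrnpdl had Pearson r of 0.395 to 0.806 (log2 CPM), and the 3 pairs within Srsf7, Tra2a and Tra2b had r of 0.600 to 0.884. The 12 pairs between these groups had r of -0.744 to -0.434. The groups were formed after these values were seen, the points share libraries, genotype and time, and the correlations are a description. Of all 36 pairs, 17 had a positive r.

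**Figure D3:**
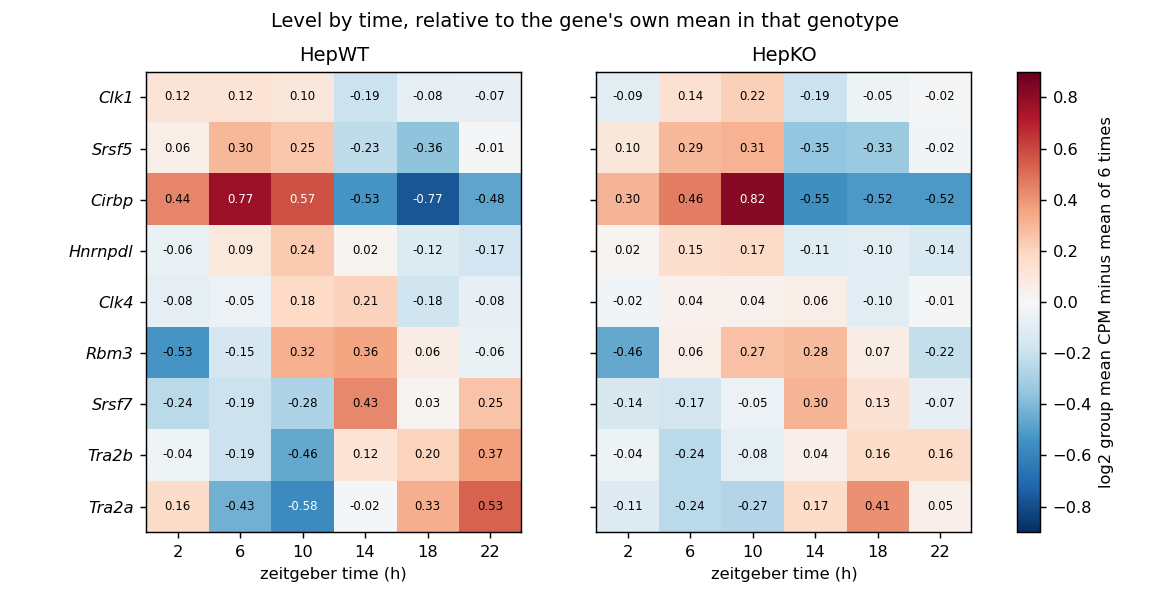
Mean CPM of 2 libraries at each zeitgeber time (columns, h) for each gene (rows, ordered by HepWT peak), as log2 relative to the gene's mean over the 6 times in that genotype; red is above and blue below that mean, HepWT left and HepKO right. Cirbp runs from 0.77 at ZT6 to -0.77 at ZT18 in HepWT and from 0.82 at ZT10 to -0.55 at ZT14 in HepKO, while Tra2a runs from -0.58 at ZT10 to 0.53 at ZT22 in HepWT.

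Averaged over the 6 times, 3 of the 9 genes differed between genotypes, which is 2 higher and 1 lower in HepKO. Of all tested genes 26.5% differed, 13.2% higher and 13.3% lower, so the share among the 9 genes was near the background. The median size of the difference was 0.10 (log2) for the 9 genes and 0.14 for all tested genes, and the medians with sign were 0.07 and -0.01. No gene of the 9 separated the genotypes over all libraries, where 1.43% of all tested genes did.

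Hnrnpdl fell in HepKO, from 49.6 ± 5.52 to 42.7 ± 4.91 CPM (SD, n = 12 each). The log2 difference was -0.21 ± 0.05 (SE, interval -0.31 to -0.12, 1.16-fold, edgeR adjusted p = 0.00207). The HepKO mean was lower at 6 of 6 times, and both HepKO libraries were below both HepWT libraries at 5 of 6. The call was lost in 1 of 35 alternative settings, with HepWT replicate 1 libraries alone (-0.17, adjusted p = 0.0587), and held without the 5 HepKO libraries of lower depth (-0.20, adjusted p = 0.0116).

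Srsf7 rose in HepKO, from 32.8 ± 6.94 to 36.9 ± 5.25 CPM. Its log2 difference was 0.18 ± 0.05 (interval 0.07 to 0.29, 1.13-fold, edgeR adjusted p = 0.0140), with a higher HepKO mean at 5 of 6 times and both HepKO libraries above both HepWT libraries at 4 of 6. In HepWT alone, Srsf7 was 0.16 higher in replicate 2 than in replicate 1 (edgeR adjusted p = 0.237), a shift of nearly the same size as the genotype difference. Against the HepWT replicate 2 libraries alone the genotype difference was 0.10 (adjusted p = 0.225). With time fitted as a 24 h wave it was 0.17 (adjusted p = 0.0859).

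Rbm3 rose in HepKO from 26.6 ± 5.67 to 29.1 ± 5.53 CPM, and this was the least stable of the 3 calls. Its log2 difference was 0.14 ± 0.05 (interval 0.04 to 0.24, 1.10-fold, edgeR adjusted p = 0.0430), with a higher HepKO mean at 5 of 6 times and both HepKO libraries above both HepWT libraries at 2 of 6. The call was lost in 24 of 35 alternative settings, 18 of which left out a single library. The difference stayed between 0.09 and 0.19 in all 35, while its adjusted p ran from 0.00633 to 0.300. It was 0.0531 with DESeq2, 0.137 with no filter on low counts and 0.203 without the 5 HepKO libraries of lower depth.

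For the other 6 genes the interval of the log2 difference included 0. Cirbp, at 11.2 ± 5.01 CPM in HepWT and 11.9 ± 5.06 CPM in HepKO, differed by 0.10 (interval -0.10 to 0.31, adjusted p = 0.494). Srsf5, at 183 ± 33.4 and 169 ± 35.9 CPM, differed by -0.12 (interval -0.25 to 0.01, adjusted p = 0.183) and had a lower HepKO mean at 6 of 6 times. Clk4, at 44.4 ± 5.85 and 41.4 ± 1.96 CPM, differed by -0.09 (interval -0.19 to 0.00, adjusted p = 0.142), also with a lower HepKO mean at 6 of 6 times; its difference passed without HepWT ZT14 replicate 1 (-0.12, adjusted p = 0.0194) and against HepWT replicate 2 libraries alone (-0.14, adjusted p = 0.0310). Tra2a, Tra2b and Clk1 had a higher HepKO mean at 4, 4 and 5 of 6 times. Tra2a, at 22.2 ± 6.44 and 23.2 ± 4.50 CPM, differed by 0.10 (interval -0.04 to 0.23, adjusted p = 0.308). Tra2b, at 40.8 ± 8.08 and 42.3 ± 5.05 CPM, differed by 0.07 (interval -0.03 to 0.17, adjusted p = 0.310). Clk1, at 77.5 ± 7.83 and 80.2 ± 8.67 CPM, differed by 0.05 (interval -0.03 to 0.13, adjusted p = 0.394). These intervals bound the differences and do not show that the levels were equal.

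**Figure D4:**
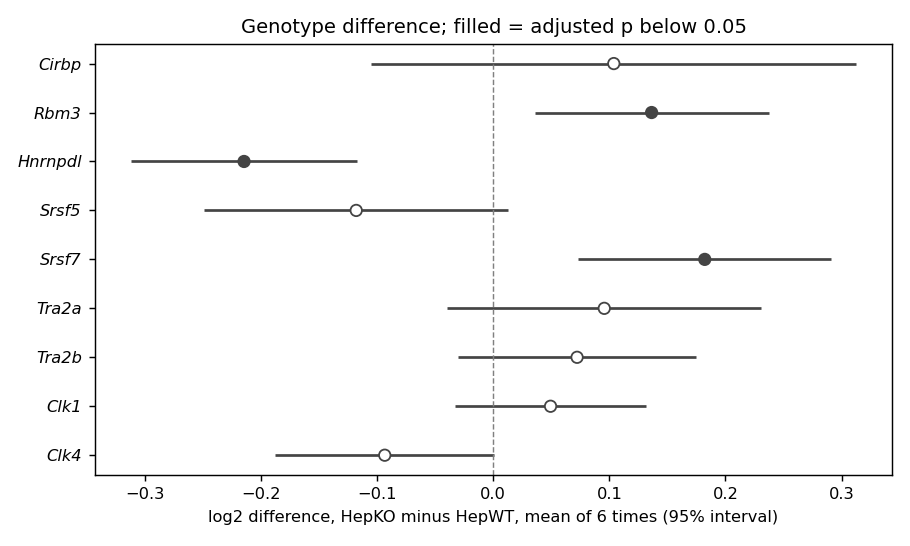
Log2 difference in level, HepKO minus HepWT, averaged over the 6 times (horizontal axis) for each of the 9 genes, with the 95% interval as a line and filled points for an adjusted p below 0.05. Hnrnpdl lies at -0.21, Rbm3 at 0.14 and Srsf7 at 0.18, and the intervals of the other 6 genes reach across 0.

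At single times, 1 of the 9 genes passed at ZT10, Tra2b, where 7.71% of all tested genes differed and 3.73% were higher in HepKO. Its ZT10 libraries stood at 26.6 and 31.5 CPM in HepWT and at 40.8 and 38.6 CPM in HepKO, a log2 difference of 0.45 ± 0.12 (edgeR adjusted p = 0.0266). ZT10 was the trough of Tra2b in HepWT. It did not pass without HepKO ZT10 replicate 1 (adjusted p = 0.184), without HepKO ZT10 replicate 2 (0.0834), without HepWT ZT10 replicate 1 (0.264) and without the 5 libraries of lower depth (0.108), with 0.0112 to 0.264 as the range over all alternatives. At the same time Srsf7 differed by 0.41 (adjusted p = 0.0574), passing in 8 of 34 alternative settings, and Tra2a by 0.41 (adjusted p = 0.147). Hnrnpdl at ZT14 differed by -0.35 (adjusted p = 0.0722) and passed without HepKO ZT14 replicate 2 (0.0373). At the other times 0 of 9 genes passed in edgeR, DESeq2 or limma-voom, where 1.86% (ZT2), 4.96% (ZT6), 7.64% (ZT14), 3.79% (ZT18) and 1.35% (ZT22) of all tested genes did in edgeR; at an unadjusted p below 0.05 edgeR gave 1, 1, 2, 1 and 1 of the 9 genes at these times, and 5 at ZT10.

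Within a genotype, replicate 2 against replicate 1 gave no called shift for any of the 9 genes in edgeR, where 1.42% of all tested genes were called in HepWT and 0.00% in HepKO. Srsf7 in HepWT was the only one of these 18 comparisons with an unadjusted p below 0.05. Even so, all 9 genes were higher in replicate 2 in HepWT, by 0.01 (Clk1) to 0.16 (Srsf7) in log2. Several of these shifts were of a size with the genotype differences given above. In HepKO the shifts ran from -0.13 (Cirbp) to 0.04 (Rbm3). Over all tested genes, an unadjusted edgeR p below 0.05 was seen for 2717 in HepWT and 471 in HepKO.

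Per kilobase of annotated exon (GENCODE M21, union of exons), Srsf5 was the most abundant of the 9 genes in HepWT, at 45.9 ± 8.38 CPM per kilobase. It stood 4.46 times above the next gene, Hnrnpdl, at 10.3 ± 1.15. Clk1 (9.53 ± 0.962), Srsf7 (9.25 ± 1.96), Clk4 (7.65 ± 1.01), Rbm3 (5.66 ± 1.21), Tra2b (4.41 ± 0.875), Cirbp (4.31 ± 1.93) and Tra2a (3.19 ± 0.928 CPM per kilobase) followed. From Hnrnpdl down, each gene overlapped its neighbour in this order within 1 SD of 12 libraries, a spread that includes the change over the day. In this annotation all 9 genes have at least 1 transcript marked as a target of nonsense-mediated decay and at least 1 with a retained intron. This holds for 21.9% of 13433 tested protein-coding genes. That share was not matched for level or for the number of annotated transcripts, which ran from 5 (Tra2a) to 14 (Clk4) for the 9 genes. The number of retained-intron transcripts was 7 for Clk1 and for Clk4, 4 for Cirbp and 2 or 3 for the others. The counts sum all transcripts of a gene, so changes in splicing were not measured here.

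The genes whose level followed each of the 9 genes most closely were taken by Pearson r of log2 CPM over the 24 libraries, over 10831 genes whose log2 CPM averaged 1 or more. For Cirbp these were Zfp277 (r = 0.930), Abtb1 (0.925), Kdm3a (0.911), Zc3h6 (0.906) and Cnppd1 (0.904). For Clk1 they were Ube2h (0.780), Lrpap1 (0.778), Pde4c (0.776), Marchf7 (0.775) and Spg21 (0.772). The single most similar gene was Hsf4 for Rbm3 (0.849), Mff for Hnrnpdl (0.890), Hnrnpl for Srsf5 (0.924), Exosc1 for Srsf7 (0.949), Tra2b for Tra2a (0.884), Mal2 for Tra2b (0.899) and Tesk2 for Clk4 (0.848). Tra2a thus had Tra2b as its closest gene, and Srsf5 had Hnrnpl, an hnRNP of the list described next. These values share libraries, genotype and time and are a description.

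Other splicing and heat shock genes were read from lists written from textbook knowledge, with earlier results of these data known. Over all tested genes, to set beside each list, 13.2% rose and 13.3% fell in HepKO, 30.3% were rhythmic in HepWT and 14.3% in HepKO. The counts describe the lists and do not test for an excess. Of 21 other SR and SR-related genes, 1 rose and 0 fell in HepKO in edgeR (0 to 4 called over the alternative settings), 8 were rhythmic in HepWT and 6 in HepKO. The one that rose was Rsrc1 (17.3 ± 2.07 to 19.0 ± 1.95 CPM, log2 difference 0.14, adjusted p = 0.0135). The largest amplitudes belonged to Srsf3 (0.39 in HepWT, peak ZT18.6, and 0.35 in HepKO), Luc7l (0.38 in HepWT) and Srsf1 (0.31 in HepKO). Srsf3 and Srsf1 thus peaked in the dark phase as Srsf7 did, and opposite to Srsf5.

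Of 25 other hnRNP and KH genes, 2 rose and 2 fell, 14 were rhythmic in HepWT and 7 in HepKO. Hnrnpc (log2 difference 0.24, adjusted p = 0.00224) and Hnrnpab (0.13, adjusted p = 0.00452) rose, and Ptbp3 (-0.21, adjusted p = 0.000484) and Pcbp1 (-0.11, adjusted p = 0.0436) fell, the last losing its call in 27 of 35 alternative settings. Hnrnpl, which binds CA repeats in RNA, had the largest HepWT amplitude of the list, 0.40 with a peak at ZT6.18, 0.36 with a peak at ZT5.72 in HepKO. Hnrnpc had a HepWT amplitude of 0.36 with a peak at ZT20.7. Beside these falls that of Hnrnpdl was -0.21.

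The list of other splicing kinases took in the CLK, SRPK and DYRK families and Prpf4b. Its DYRK genes were listed by family, and a role of each in splicing was not tested. Of its 9 tested genes, 2 rose and 1 fell, 6 were rhythmic in HepWT and 3 in HepKO. Dyrk3 rose from 0.956 ± 0.474 to 1.52 ± 0.314 CPM (log2 difference 0.74, adjusted p = 0.0154) and Srpk1 from 31.9 ± 4.21 to 34.8 ± 2.68 CPM (0.13, adjusted p = 0.0240, lost in 8 of 35 alternative settings). Dyrk2 fell from 65.5 ± 15.3 to 56.6 ± 9.06 CPM (-0.20, adjusted p = 0.000307). Dyrk1b had an amplitude of 1.10 in HepWT and 0.81 in HepKO with peaks at ZT5.57 and ZT5.19. Of the 6 kinases rhythmic in HepWT, 4 peaked in the light phase and 2 in the dark phase, and in HepKO all 3 peaked in the light phase.

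Of 33 other RNA-binding splicing regulators, 1 rose (Mbnl2, log2 difference 0.26, adjusted p = 0.00869), 1 fell (Rbm6, -0.12, adjusted p = 0.0336, lost in 18 of 35 alternative settings), 9 were rhythmic in HepWT and 6 in HepKO. Mbnl2 had a HepWT amplitude of 0.43, Fubp3 a HepKO amplitude of 0.27 and Tia1 one of 0.25. Of 33 spliceosome genes, 5 rose and 2 fell, beside 13.2% and 13.3% of all tested genes. In this list 13 were rhythmic in HepWT and 5 in HepKO, beside 30.3% and 14.3% of all tested genes. Snrpd1 (0.30, adjusted p = 0.00173) and Snrpd3 (0.19, adjusted p = 0.00402), which encode Sm core proteins, rose, while Snrnp200 (-0.18, adjusted p = 0.00125) and Cdc5l (-0.12, adjusted p = 0.0352, lost in 23 of 35 alternative settings) fell. Among their rhythms, Sf3b4 had a HepWT amplitude of 0.42 and Snrpa had 0.40 in HepWT and 0.55 in HepKO.

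The time course of genes of the heat shock response was set beside that of the cold-inducible pair. Feeding was restricted to the night and body temperature was not analysed, and the part of either in these time courses was not tested. Of 21 tested heat shock genes, 18 were rhythmic in HepWT and 16 in HepKO, beside 30.3% and 14.3% of all tested genes. In HepKO 2 rose and 1 fell, beside 13.2% and 13.3% of all tested genes. All called rhythms peaked in the dark phase, from ZT15.1 to ZT19.8 in HepWT and from ZT14.0 to ZT20.5 in HepKO, whereas 49.2% of all rhythmic genes in HepWT and 47.8% in HepKO peaked in the light phase, between ZT0 and ZT12. The peak of Cirbp, at ZT6.14 and ZT6.85, lay outside this range, and that of Rbm3, at ZT13.6 and ZT12.5, lay before it. Hspa1a had an amplitude of 1.75 in HepWT and 1.90 in HepKO, and Hspa1b, its near-identical copy, 1.65 and 1.44, so their counts are uncertain to the extent that reads were split between them. Hspa1a rose from 1.18 ± 1.62 to 2.48 ± 3.54 CPM (log2 difference 1.05, adjusted p = 0.000607), Hsp90ab1 rose (0.16, adjusted p = 0.0438, lost in 22 of 35 alternative settings), and Hspb1 fell (-0.62, adjusted p = 0.0463). The call of Hspb1 was lost in 21 of 35 alternative settings, and its difference turned to 0.0488 against HepWT replicate 2 libraries alone. The 3 called heat shock genes became 10 without HepWT ZT2 replicate 1, 5 without HepWT ZT22 replicate 1, and 1 without any one of 10 other libraries (HepKO ZT2, ZT6 and ZT22 replicate 2, both of HepKO ZT10, HepKO ZT14 and ZT18 replicate 1, HepWT ZT10 and ZT14 replicate 1, and HepWT ZT18 replicate 2). Without the 5 HepKO libraries of lower depth, 0 of the heat shock genes were called rhythmic in HepKO, 0 of the hnRNP genes, and 1 in each of the other 4 lists.

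**Figure D5:**
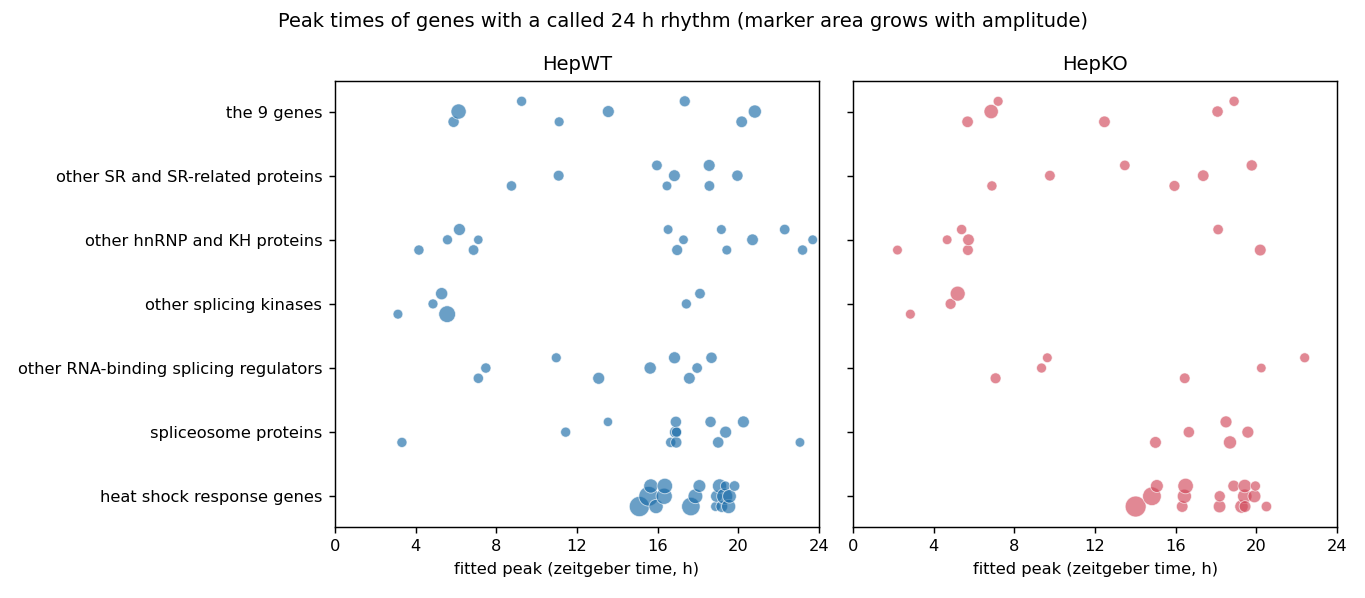
Fitted peak time (horizontal axis, zeitgeber time in h) of every gene with a called 24 h rhythm, in HepWT (left) and HepKO (right), for the 9 genes and 6 lists (rows); each point is a gene, its area grows with amplitude and its vertical offset within a row has no meaning. Heat shock genes lie between ZT15.1 and ZT19.8 in HepWT and between ZT14.0 and ZT20.5 in HepKO, and the 9 genes are spread from ZT5.89 to ZT20.8 in HepWT.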

How the data were processed

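Liver RNA was sequenced in 24 libraries of 12 groups. Per the labels, a stranded kit was used on total RNA depleted of ribosomal RNA, and the authors' alignment to mm10 used STAR 2.4.0i, per the submitters' processing notes. The values deposited are unnormalized read counts for each Ensembl gene in each library. The sources used here do not give the tool, annotation or strand setting of the counting, so overlapping genes and paralogues (Tra2a with Tra2b, Clk1 with Clk4) are uncertain to that extent; 0 sample columns were left unused.

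The fits took in all genes and used edgeR 4.0.16 in R 4.3.3 and limma 3.58.1. They took TMM scaling, a low-count filter by group (filterByExpr, at least 10 counts, 15 in total) and two-sided quasi-likelihood F tests. The threshold was a Benjamini-Hochberg adjusted p of 0.05 over 17275 genes. Every adjusted p is from this test unless another tool is named. Genotype differences came from a model of the 12 groups, with 12 residual degrees of freedom. Rhythms came from a 24 h wave fitted to each genotype, with 18. The procedure was tested on simulated data. Chi-square per degree of freedom between the 2 replicates of a group, taken over the tested genes together, was 9.77 to 64.2, far above counting noise. Genes with high counts can dominate such a value, and it was not computed for single genes. Whether depth or the spread between libraries limits the precision for a given gene was therefore not tested.

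The 9 genes and the lists were chosen with earlier results of these data known. Named list genes were the 2 rises and 2 falls of smallest p and the 2 largest called amplitudes in each genotype. Genes similar to a member were the 5 of highest r for Cirbp and Clk1 and the single highest for the others, without predicted gene models. Alternatives were DESeq2 1.42.0, limma-voom, other scalings, no count filter, a replicate block, other time terms, a threshold of 0.01, fits without the 5 libraries of lower depth or with HepWT replicate 1 or 2 alone, and leaving out each of the 24 libraries; a lone library of a group took the spread of the other groups.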

Additional observations from a re-analysis of the deposited data

Results flagged for a closer look

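Arntl, the deleted gene, was picked out because its effects differed between the genotypes by a test of the difference itself: the 24 h rhythms differed with an edgeR adjusted p of 0.00208 (0.0679 without the 5 HepKO libraries of lower depth, where the amplitude difference was -1.94 beside -1.95 with them), and the genotype difference varied with time with an adjusted p of 1.3e-07. Rbm25, an RNA-binding splicing regulator of the lists, was picked out by the same tests. Its amplitude was 0.40 in HepWT with a peak at ZT16.8 and 0.14 in HepKO with a peak at ZT20.2. The rhythms differed with an adjusted p of 0.00172 (0.0248 without those libraries), and the genotype difference varied with time with an adjusted p of 0.0375. None of the 9 genes met these tests. Groups of 2 libraries are too small for a test of single outlying libraries.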

How the results depend on the processing

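Over 47 results on the 9 genes and 37 alternative settings, 1661 values were recomputed; 1538 kept their direction and side of the threshold, 85 lost a call, 29 gained one and 9 changed sign, all of them amplitude differences between genotypes that were not called. These were Srsf5 without HepKO ZT18 replicate 1 (-0.00180) and without HepWT ZT22 replicate 1 (-0.00134), Hnrnpdl without HepKO ZT18 replicate 2 (0.00367), without HepWT ZT10 replicate 2 (0.00227), without the 5 low-depth HepKO libraries (0.0280) and with HepWT replicate 1 alone (0.00845), Rbm3 without HepWT ZT2 replicate 1 (0.0224) and with HepWT replicate 2 alone (0.00588), and Clk1 with HepWT replicate 1 alone (0.00773). Leaving out 1 library, these differences ran from -0.00180 to 0.0812 for Srsf5, -0.0527 to 0.00367 for Hnrnpdl and -0.0738 to 0.0224 for Rbm3. The uncalled genotype difference of Arntl turned to -0.0101 without HepWT ZT14 replicate 2 (-0.0101 to 0.114 leaving out 1 library) and to -0.144 with time as a 24 h wave, and the called difference of Hspb1 turned to 0.0488 with HepWT replicate 2 alone. Counts over all genes stood at 4572 (genotype), 193 (interaction), 5239 and 2471 (rhythm in HepWT and HepKO), 259 (rhythm difference) and 4717 (sum over the 6 times). DESeq2 gave 528 for the interaction and 571 for the rhythm difference, with 1 of the 9 genes. No count filter gave 1655, 1367 and 9171 for interaction, rhythm difference and single times, with 1 of the 9 genes in each of the first pair. Without the 5 low-depth libraries, counts were 2900 (genotype), 47 (interaction), 166 (HepKO rhythm, 1 of the 9 genes), 70 (rhythm difference) and 1717 (single times). HepWT replicate 1 alone gave 2282 HepWT rhythms (5 of the 9 genes) and 163 rhythm differences (1 of 9), and replicate 2 alone gave 2675 (4 of 9) and 150. At a threshold of 0.01 counts were 2928 (1 of 9), 99, 3064, 888, 116 and 2108 in the order given above, and with time as a wave 1 of the 9 genes differed by genotype. Leaving out 1 library gave 172 to 309 rhythm differences, with 0 to 1 of the 9 genes. Library-size scaling alone moved the median genotype difference of all genes from -0.01 to 0.05. Called genotype differences over the alternatives numbered 0 to 4 for SR genes, 1 to 6 for hnRNP genes, 1 to 4 for kinases, 0 to 5 for other regulators, 3 to 8 for spliceosome genes and 1 to 10 for heat shock genes; rhythms in HepKO numbered 1 to 9, 0 to 9, 1 to 4, 1 to 9, 1 to 7 and 0 to 18, and in HepWT 3 to 9, 4 to 15, 2 to 6, 3 to 12, 7 to 14 and 14 to 19. Except where fewer libraries, other genes tested or a stricter threshold set the change, its cause was not tested.

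Replicate numbers did not pair HepKO with HepWT libraries: the correlation of deviations from the group means ran from -0.0893 to 0.0526 over the 6 times. Within HepWT, libraries of the same number did deviate together: 11 of 15 pairs of times had a correlation above 0.1, up to 0.299, against 0 of 15 in HepKO. The HepWT rhythm fits treat these libraries as independent, and the values for HepWT replicate 1 or 2 alone are given above. The replicate block was 1 shift shared by both genotypes, so it cannot remove a shift of the HepWT libraries alone. With this block, 4597 genes differed by genotype, and Rbm3 differed by 0.14 (adjusted p = 0.0343). Among the 9 genes the block changed only the call of Srsf7 at ZT10 (0.42, adjusted p = 0.0496).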
